A study of Mus musculus with 31 samples.

Results

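The proteasome genes described here are the protein-coding genes whose symbol in the GENCODE vM21 annotation starts with Psm, followed by a letter from a to g and a digit. This took 50 genes, and leaving out the immunoproteasome subunits Psmb8, Psmb9 and Psmb10 left 47. The tables of the study hold 35275 and 54532 gene IDs, and all 47 genes are in both. Of the 47 genes, 14 encode constitutive subunits of the core particle, 7 of them alpha and 7 beta subunits. Another 17 encode subunits of the regulatory particle, 6 ATPases and 11 other subunits. The remaining 16 are 4 chaperones of core assembly, 3 chaperones of the regulatory particle, 5 activators, 1 inhibitor, 2 core subunits of single tissues, and Psmc3ip, a gene of meiotic recombination that is no subunit and fits by its name alone.

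The proteasome degrades proteins that carry ubiquitin chains. Its core particle is a barrel of stacked rings, with alpha rings as gates and beta rings holding the catalytic sites, and the regulatory particle binds, unfolds and feeds in the substrate through a ring of ATPases. Liver and skeletal muscle both depend on it for protein turnover, and muscle uses it to break down contractile proteins during wasting.

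The study asked how the nuclear receptor ERRα takes part in the action of insulin, and RNA was sequenced in 31 samples of 8 groups from C57BL/6N male mice of 2 to 3 months on a standard diet. In the first experiment, WT mice and mice with a global knockout of ERRα (ERRα KO) were fasted for 12 h and given saline or insulin at 1 unit/kg into the peritoneum, and livers were taken after 4 h. These groups were WT liver saline (n = 4), WT liver insulin (n = 4), ERRα KO liver saline (n = 4) and ERRα KO liver insulin (n = 3, replicates 1, 2 and 4). In the second experiment, homozygous ERRα3SA mice, a CRISPR knock-in with serines of ERRα changed to alanine, were compared with WT littermates in liver and in muscle (gastrocnemius and soleus), with 4 samples in each of the 4 groups. Whether liver and muscle came from the same mice is not given in the sources used here. Comparisons between these tissues treat their samples as independent. Total counts ran from 35871419 to 48317108 per sample in the first experiment and from 20481405 to 33412022 in the second. Values are CPM, counts scaled to libraries of one size with TMM within an experiment, and no test was made between experiments.

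Esrra, the gene of ERRα, was read first in every sample. It stood at 1.63, 0.703, 1.15 and 1.04 CPM in ERRα KO liver with saline and at 0.833, 0.576 and 0.298 CPM with insulin. In WT liver it stood at 32.3, 51.3, 42.7 and 40.5 CPM with saline and 53.7, 96.5, 56.1 and 59.0 CPM with insulin. The knockout labels thus fit the reads in all 7 ERRα KO samples. In the second experiment Esrra was at 27.1 to 29.5 CPM in liver and 67.0 to 90.2 CPM in muscle of WT littermates, at 29.4, 25.4, 21.1 and 19.2 CPM in ERRα3SA liver, and at 24.3, 133, 127 and 94.6 CPM in ERRα3SA muscle. Replicate 1 of ERRα3SA muscle was below every WT littermate muscle and the other 3 were above all of them. The ERRα3SA genotype itself cannot be checked from gene counts. For Esrra, replicate 1 of ERRα3SA muscle lay outside both muscle groups, so its level matches neither label, and its label stays unchecked.

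The tissue labels were read from fixed markers. The summed level of 5 hepatocyte markers, with Alb the most abundant, was 50990 to 98842 CPM in the liver samples and 0.160 to 1.30 CPM in the muscle samples. That of 5 skeletal muscle markers, with Myh4 the most abundant in muscle, was 79878 to 178473 CPM in muscle and at most 10.9 CPM in liver, except for WT liver insulin replicate 3 with 69.8 CPM.

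A few libraries stood apart before any comparison. In ERRα3SA muscle replicate 1, the mitochondrial genome held 19.3% of the counts, against 9.15 to 9.85% in the other 3 and 10.04 to 10.8% in WT littermate muscle, and the 10 most abundant genes held 33.3%, against 19.8 to 24.2% in the other 7 muscle samples. This library also had the highest sum of muscle markers, 178473 CPM, against 79878 to 117618 CPM in the other 7, with Myh4 at 104328 CPM. WT liver insulin replicate 2 had 1.88% of mitochondrial counts against 3.88 to 4.17% in the rest of its group, and the highest mean level of core subunits in the first experiment. ERRα3SA liver replicate 4 had the lowest hepatocyte sum, 50990 CPM. ERRα3SA muscle replicate 4 had the lowest sum of muscle markers, 79878 CPM, and the highest of 4 stellate cell and fibroblast markers, 2649 CPM, against 967 to 1479 CPM in the other 7 muscle samples. Results that rest on the first and second of these libraries are given with and without them, a choice made after the data were seen.

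Psmb11, the thymus-specific beta subunit, had 0 reads in all 31 samples and entered no test. Psma8, the alpha subunit of the testis, had 3 to 48 reads in liver samples and 0 to 5 in muscle samples, and did not pass the filter on low counts in the comparison of ERRα3SA with WT littermate muscle. Psmc3ip, at 0 to 32 reads in the liver samples of the first experiment, did not pass it for insulin in ERRα KO liver or for ERRα KO against WT with saline. All other 44 genes passed in every comparison. The setting for strand in the counting step is not given in the sources used here, and 13 of the 47 genes share exon bases with a neighbour, 4 of them on the same strand. Values of these 13 are uncertain to that extent: Psmd9 shares 25.5% of its exon bases with the antisense transcript Gm26745, Psmc3ip 21.2% with Mlx, Psmb5 12.1% with Mir686, Psmb7 11.8% with Nek6 and Psmd13 10.1% with Sirt3. Psme2b, a near copy of Psme2 without introns, can also share reads with it.

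The start regions of 4 genes are shown, because each holds a motif that was searched and because these genes are named below for the comparisons with insulin (Psmd9 and Psmb5) and with ERRα3SA in muscle (Psmb5, Psmb6 and Psma6). Sequences are from RefSeq on GRCm38.p6, 250 bases before to 50 after the start, on the strand of the gene. Capitals mark the antioxidant response element TGACNNNGC in Psmb5 (chr14:54617946-54618245, minus strand), Psmb6 (chr11:70525107-70525406, plus strand) and Psmd9 (chr5:123227940-123228239, plus strand). In Psma6 (chr12:55383972-55384271, plus strand) they mark the CCAAT box, once on each strand. Psma6 has another RefSeq start at chr12:55398825, 14603 bases downstream, and the region there held none of the motifs searched. For Psmd9, the RefSeq start at chr5:123228190 is also that of a coding transcript in GENCODE, but the GENCODE gene, whose merged exons set its length here, starts 58777 bases upstream at chr5:123169413.
Psmb5: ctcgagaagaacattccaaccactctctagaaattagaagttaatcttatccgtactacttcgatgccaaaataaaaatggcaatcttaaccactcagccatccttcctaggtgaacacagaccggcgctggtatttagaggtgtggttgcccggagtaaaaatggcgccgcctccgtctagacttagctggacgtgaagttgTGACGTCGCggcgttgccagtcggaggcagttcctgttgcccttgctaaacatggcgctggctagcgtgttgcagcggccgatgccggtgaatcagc
Psmb6: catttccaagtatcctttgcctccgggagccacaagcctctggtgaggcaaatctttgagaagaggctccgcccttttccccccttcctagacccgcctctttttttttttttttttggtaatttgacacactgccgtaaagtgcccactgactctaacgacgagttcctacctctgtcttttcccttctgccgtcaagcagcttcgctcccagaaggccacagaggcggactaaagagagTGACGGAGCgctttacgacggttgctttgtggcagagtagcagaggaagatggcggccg
Psma6: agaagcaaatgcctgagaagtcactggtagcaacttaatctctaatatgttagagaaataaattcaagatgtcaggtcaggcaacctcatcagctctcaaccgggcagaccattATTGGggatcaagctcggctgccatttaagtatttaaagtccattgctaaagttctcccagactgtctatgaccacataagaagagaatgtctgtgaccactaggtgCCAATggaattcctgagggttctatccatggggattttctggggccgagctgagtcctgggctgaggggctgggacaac
Psmd9: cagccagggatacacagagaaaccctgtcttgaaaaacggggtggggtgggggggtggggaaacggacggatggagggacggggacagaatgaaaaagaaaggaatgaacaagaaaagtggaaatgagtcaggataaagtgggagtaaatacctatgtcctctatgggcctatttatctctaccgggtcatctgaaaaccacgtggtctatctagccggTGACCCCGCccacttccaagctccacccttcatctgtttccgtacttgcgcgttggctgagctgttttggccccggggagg

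A start region was found for 39 of the 47 genes, and 8 had none in the table. A gene with more than 1 region, such as Psma6, was counted if any of them held the motif, while the background counts each region. For 4 of the 39, Psmd9 among them, no RefSeq start lay within 1000 bases of the start of the GENCODE gene, while all 39 had one within 1000 bases of the start of a coding transcript. On either strand, TGACNNNGC was in 6 of the 39 (15.4%), namely Psmb5, Psmb6, Psmc6, Psmd12, Psmd9 and Psme4, against 12.4% of all 32851 regions of this length. By particle, it was in 2 of 11 core subunits and 2 of 14 regulatory particle subunits. CCAAT was in 14 of the 39 (35.9%), against 37.4% of all regions, with 6 of 11 core and 4 of 14 regulatory particle subunits. The element of the ERR receptors, TCAAGGTCA, was in 1 of the 39, that of Psmc3ip, against 0.423% of all regions, and in 0 of 11 core and 0 of 14 regulatory particle subunits. The first 2 motifs were thus about as frequent among proteasome genes as in all regions, and a match says only that the letters are there.

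Levels of different genes are compared as FPKM, CPM divided by the length of the merged exons in kilobases. In WT liver with saline, the most abundant core transcripts were Psmb5, the chymotrypsin-like catalytic subunit, at 72.4 ± 5.70 FPKM (SD, n = 4), and Psma6, an alpha subunit, at 64.3 ± 4.29 FPKM. The alpha subunit Psma2 was lowest at 11.8 ± 2.23 FPKM. Among regulatory particle transcripts, the ATPase Psmc1 was highest at 82.7 ± 3.11 FPKM, followed by Psmd2, the scaffold that holds ubiquitin-binding proteins, at 60.3 ± 2.89 FPKM, and the deubiquitinase Psmd14 was lowest at 13.9 ± 1.42 FPKM. The mean ± SD ranges of Psmb5 and Psma6 overlapped, and the median over the 14 core subunits, 29.1 FPKM, was close to the 30.6 FPKM of the 17 regulatory particle subunits.

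With merged exons as length, the 7 assembly chaperones were below the lowest subunit of either particle in WT liver with saline. There the core chaperones Psmg1 and Psmg4 stood at 7.36 ± 0.654 and 5.47 ± 1.13 FPKM, and Psmg2 and Psmg3 at 3.23 ± 0.378 and 0.406 ± 0.138 FPKM. The chaperones of the ATPase ring, Psmd9, Psmd10 and Psmd5, stood at 6.28 ± 0.431, 5.09 ± 1.48 and 3.90 ± 0.677 FPKM, and the inhibitor Psmf1 at 4.78 ± 0.585 FPKM. Of the activators, the large cap protein Psme4 was at 29.3 ± 1.73 FPKM, the nuclear activator Psme3 at 20.6 ± 2.81 FPKM, and the interferon-inducible pair Psme1 and Psme2 at 16.0 ± 0.637 and 14.3 ± 2.81 FPKM. Lengths set part of this order. With the longest protein-coding transcript in place of merged exons, the median over the 31 subunits in WT liver with saline was 53.0 in place of 30.0 FPKM, and Psmb7 at 85.8 and Psmb6 at 82.4 FPKM came before Psma6 at 76.2 and Psmb5 at 72.4 FPKM. Psma2 and Psmd14 were the lowest of their particles with both lengths, but Psmd9, at 17.5 FPKM with the longest transcript, then came above Psma2 at 14.9 FPKM, while the other 6 chaperones stayed below both particles.

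The 31 core and regulatory particle subunits together took 0.247 to 0.402% of the counts of a sample. With merged exons as length, the same genes led in most groups: Psmb5 or Psma6 was the highest core transcript and Psma2 the lowest in all 8 groups, and Psmc1 was the highest regulatory particle transcript in all 6 liver groups. In the muscle groups the ATPase Psmc5 was first, at 78.9 ± 2.87 FPKM in WT littermates, and Psmd7, the partner of the deubiquitinase Psmd14, was second at 69.3 ± 4.34 FPKM. Merged exons hold 1394 bases for Psmc5 and 2261 for Psmd7, and the longest coding transcripts 1316 and 1581 bases. The order in muscle thus depends on the length used.

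Muscle and liver of WT littermates were compared to ask how the makeup of the transcripts differs between tissues. Most core subunits were lower in muscle, and most regulatory particle subunits that differed were higher. Psma5, an alpha subunit, read 66.7, 61.3, 64.2 and 59.6 CPM in liver and 37.4, 43.9, 40.6 and 40.6 CPM in muscle. Psmd7 read 83.3, 76.8, 80.9 and 79.4 CPM in liver and 145, 159, 155 and 168 CPM in muscle. For both genes the tissues did not overlap, with muscle low for Psma5 and high for Psmd7. In bulk tissue, fewer cells of a type and less RNA per cell cannot be told apart.

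Calls take over the thresholds of the study, an unadjusted p under 0.05 with a fold change of at least 1.2. The study used DESeq2 for its p-values, while those here come from the quasi-likelihood (QL) test of edgeR, adjusted by Benjamini-Hochberg over all genes tested where so named. Of the 46 proteasome genes tested, 11 were called higher and 22 lower in muscle, and 40 had an adjusted p under 0.05. Among all 14886 genes tested, 42% were called higher, 42.2% lower, and 86.5% had an adjusted p under 0.05, so the share called higher is below the background, while the other 2 shares are near it. Of the 14 core subunits, 8 were called lower and 0 higher by edgeR, and their median log2 fold change was -0.37, beside 0.0015 over all genes. By adjusted p alone, 12 of the 14 core subunits were lower and 0 were higher. Of the 17 regulatory particle subunits, 9 were called higher and 3 lower, with a median of 0.35.

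Within the core, log2 fold changes ran from -0.60 (SE 0.068, adjusted p = 1.47e-06) for Psma5 to 0.064 (SE 0.064, adjusted p = 0.356) for Psmb7, the trypsin-like catalytic subunit. Psmb5 fell by 0.38 (SE 0.057, adjusted p = 2.45e-05), from 75.4 to 80.0 CPM in liver to 56.0 to 60.7 CPM in muscle. Psmb6, the caspase-like catalytic subunit, had a log2 fold change of -0.24 (SE 0.065, adjusted p = 0.00400). The catalytic subunits thus did not move as one, since Psmb7 overlapped between the tissues and the other 2 did not. In the regulatory particle, Psmd7 was highest at 1.00 (SE 0.064, adjusted p = 2.50e-09) and the ATPase Psmc4 lowest at -0.45 (SE 0.054, adjusted p = 2.28e-06). Its ATPases split, with Psmc3, Psmc5 and Psmc6 called higher and Psmc1 and Psmc4 lower, as did its other subunits, with 6 called higher and 1, Psmd11, lower; these were named after their values were seen.

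The largest differences lay outside both particles. Psme2 and Psme1, which form the interferon-inducible activator ring, had log2 fold changes of -2.11 (SE 0.073, adjusted p = 2.48e-12) and -1.51 (SE 0.075, adjusted p = 1.49e-10), and the copy Psme2b had -1.64 (SE 0.27, adjusted p = 5.25e-05). Psmg1, which pairs with Psmg2 to start the alpha ring, was at 16.8 to 19.4 CPM in liver and 5.73 to 6.09 CPM in muscle, a log2 fold change of -1.54 (SE 0.092, adjusted p = 1.22e-09). Of the 7 chaperones, 6 were called lower and Psmg2 had a log2 fold change of 0.044. Psme4, chosen after its values were seen, went the other way, from 151 to 168 CPM in liver to 345 to 420.2 CPM in muscle (1.32, SE 0.072, adjusted p = 3.99e-10). Psmc3ip, the gene that fits by name, had 7 to 15 reads in liver and 38 to 61 in muscle. Psma8 had 22, 18, 30 and 41 reads in liver and 0, 0, 0 and 1 in muscle, too few there for a fold.

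All 3 immunoproteasome subunits, which replace the catalytic subunits in immune cells, were lower in muscle, with log2 fold changes of -3.46 for Psmb8, -3.10 for Psmb9 and -1.85 for Psmb10, the largest adjusted p being 8.33e-09. The 4 Kupffer cell markers summed to 250.2, 275, 275 and 273 CPM in liver and 3.69, 4.03, 7.01 and 4.63 CPM in muscle. Clec4f was the most abundant of them in liver and at 0 in muscle, where Adgre1 was the most abundant, and the part of these cells was not tested. Of the 4 proteasome genes outside the rule, 1 was called higher and 2 lower, and of the 28 other genes of the ubiquitin pathway, 27 were tested, 13 called higher and 8 lower. Among the latter, Nfe2l1, a transcription factor that induces proteasome genes, was at 124 to 145 CPM in liver and 699 to 735 CPM in muscle, a log2 fold change of 2.43 (SE 0.076, adjusted p = 7.87e-13). Fbxo32, a ubiquitin ligase of muscle wasting, had 7.26 (SE 0.13, adjusted p = 1.58e-15). The ligase Trim63 was at 209 to 227 CPM in muscle and 0 to 0.0958 CPM in liver.

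Insulin was compared with saline in WT liver to ask what 4 h of insulin does to the proteasome genes. Psmd9, a chaperone that assembles the ATPase ring (ENSMUSG00000029440), read 46.2, 49.2, 45.2 and 41.6 CPM with saline and 63.3, 78.8, 71.4 and 77.8 CPM with insulin. Every insulin sample was above every saline sample. Its log2 fold change was 0.68 (SE 0.12), a fold of 1.60, with an adjusted p of 0.0131 by edgeR QL and Benjamini-Hochberg. It was the only proteasome gene with an adjusted p under 0.05 in this fit.

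Psmb5 (ENSMUSG00000022193) read 64.2, 60.0, 64.0 and 72.3 CPM with saline and 88.2, 116, 74.3 and 84.3 CPM with insulin. Psmd4, a ubiquitin receptor of the regulatory particle, read 149, 121, 133 and 118 CPM with saline and 198, 222, 140.3 and 166 CPM with insulin. The groups did not overlap for Psmb5, while 1 insulin sample of Psmd4 lay within the saline range. Both were the highest of their particle, with log2 fold changes of 0.48 (SE 0.15, adjusted p = 0.119) and 0.48 (SE 0.15, adjusted p = 0.137). The lowest were the alpha subunit Psma4 at 0.029 (SE 0.12, adjusted p = 0.933) and the scaffold Psmd1 at -0.0092 (SE 0.11, adjusted p = 0.978). Psmb6 read 62.2, 54.2, 74.2 and 72.3 CPM with saline and 70.7, 93.8, 66.4 and 80.2 CPM with insulin (0.24, SE 0.15, adjusted p = 0.429), and Psmb7 had 0.19 (SE 0.11, adjusted p = 0.408). The Psmb6 values of the groups overlapped.

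Of the 46 proteasome genes tested, 9 were called higher and 0 lower by edgeR (DESeq2 called 10 higher and 0 lower), and 1 had an adjusted p under 0.05. Among all 13463 genes tested, 8.34% were called higher, 8.91% lower, and 3.16% had an adjusted p under 0.05. The share called higher among the proteasome genes was above that background and the share called lower below it. Beside Psmb5, the core subunits called higher were the alpha subunits Psma7 (0.43) and Psma2 (0.38). In the regulatory particle they were, beside Psmd4, the lid subunit Psmd8 (0.41) and the ATPase Psmc4 (0.40), and among core chaperones Psmg4 (0.56) and Psmg1 (0.33). These 6 were named after their values were seen. Insulin and saline samples did not overlap for Psmd8, Psmc4 and Psmg4, and did for Psma7, Psma2 and Psmg1.

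Most of the other genes pointed the same way without passing the test. All 14 core subunits had a positive log2 fold change, except Psma4 at -0.036 without WT liver saline replicate 2 and at -0.0065 without WT liver insulin replicate 3, with a median of 0.25, and 16 of 17 regulatory particle subunits, with a median of 0.19, beside a median of 0.0036 over all genes. The 5 activators ran from -0.20 to 0.13. Of the genes outside the rule, the ubiquitin receptor Adrm1 was called higher (0.35), and of 26 other ubiquitin pathway genes tested, 3 were called higher and 4 lower. The larger ones were Uba6, an enzyme that activates ubiquitin (-0.80), Fbxo32 (0.62), the ligase subunit Rbx1 (0.54), Txnl1, a thioredoxin of the regulatory particle (0.53, SE 0.12, adjusted p = 0.0348), and Nfe2l2, a transcription factor of antioxidant genes (-0.42).

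Without WT liver insulin replicate 2, which read highest for Psmd9, Psmb5 and Psmd4, 6 proteasome genes were called higher and 0 lower by edgeR, against 7.72% and 7.86% of all 13800 genes tested. Psmd9 was then the only one with an adjusted p under 0.05 (0.64, SE 0.11, adjusted p = 0.0213), against 2.66% of all genes. The medians were 0.15 for the core and 0.11 for the regulatory particle, and 1 core subunit, Psmb5 (0.34, SE 0.11, adjusted p = 0.174), was called. Psma4 was the lowest core subunit at 0.0001 and Psmd7 the lowest of the regulatory particle at -0.082. Leaving out WT liver saline replicate 2 in place of it gave 5 called, and leaving out WT liver saline replicate 4 left 0 proteasome genes with an adjusted p under 0.05 in edgeR, with 7 called and Psmd9 at 0.64. Over all genes, 105 had an adjusted p under 0.05 in the latter fit, against 425 with all samples.

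Insulin was then compared with saline in ERRα KO liver, to read the same response without ERRα. Psmd4 read 141, 128, 114 and 161 CPM with saline and 169, 175 and 159.8 CPM with insulin. Psmd11, a lid subunit of the regulatory particle, read 102, 102, 113 and 104 CPM with saline and 129, 128 and 131 CPM with insulin. For Psmd11 the groups did not overlap, while for Psmd4 the highest saline sample lay within the insulin range. Psmd9 read 65.1, 56.1, 74.3 and 68.0 CPM with saline and 88.9, 72.6 and 80.5 CPM with insulin, with 1 insulin sample inside the saline range. These 3 genes were the ones called, with log2 fold changes of 0.30 (SE 0.12, adjusted p = 0.244), 0.29 (SE 0.094, adjusted p = 0.126) and 0.29 (SE 0.12, adjusted p = 0.234).

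Of the 45 proteasome genes tested, 3 were thus called higher, 0 lower, and 0 had an adjusted p under 0.05 in edgeR (1 in DESeq2, which called 4 higher and 0 lower). Among all 13684 genes tested, 8.05% were called higher, 9.14% lower, and 2.91% had an adjusted p under 0.05, so the count called higher is near the background. With library size scaling only, 0 proteasome genes were called higher and 1 lower in edgeR, so that these calls rest on the scaling. Core subunits were spread around 0, with 8 of 14 positive (2 with library size scaling only, 3 with replicates as a block or without ERRα KO liver saline replicate 3, and 4 without ERRα KO liver insulin replicate 1), a median of 0.026 and a range from Psmb3 at -0.18 (SE 0.13, adjusted p = 0.535) to Psma7 at 0.15 (SE 0.10, adjusted p = 0.487). Psmb5, Psmb6 and Psmb7 stood at 0.038, 0.053 and 0.054, and these 3 turned negative when only library size was scaled. In the regulatory particle 16 of 17 were positive (13 with library size scaling only) with a median of 0.15, the lowest being the ATPase Psmc2 at -0.0067 (SE 0.098, adjusted p = 0.983), which turned to 0.0005 with other scaling factors. The median over all genes was -0.022.

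Outside the rule, Fbxo32 (1.37, SE 0.21, adjusted p = 0.0109) passed the adjusted test, and Psmb10 (-0.86), Uba6 (-0.44), the ligase Ube3c (0.40) and the deubiquitinase Usp14 (0.33) were called. With 3 insulin samples the count of proteasome genes called moved with single libraries, to 5 (4 higher and 1 lower) without ERRα KO liver saline replicate 1, to 4 (2 higher and 2 lower) without ERRα KO liver insulin replicate 4 and to 1 without ERRα KO liver insulin replicate 1.

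The difference between both responses, ERRα KO minus WT, was tested itself in a fit of the 4 liver groups. With all samples it was negative for all 14 core subunits, from -0.44 (SE 0.24, adjusted p = 0.623) for Psmb5 to -0.040 (SE 0.22, adjusted p = 0.970) for the beta subunit Psmb2, with a median of -0.26. None of the 14 was called, and Psmb6 and Psmb7 stood at -0.19 (SE 0.21, adjusted p = 0.816) and -0.14 (SE 0.18, adjusted p = 0.853). The regulatory particle had 7 of 17 positive (3 with library size scaling only) and a median of -0.064, from -0.27 for Psmd14 to 0.21 for Psmd1, beside a median of -0.020 over all genes.

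The 4 proteasome genes called in this difference, all lower, were chaperones. Psmg1 read 9.09, 9.37, 10.01 and 11.1 CPM in WT liver with saline and 13.0, 13.3, 12.9 and 10.5 CPM with insulin. In ERRα KO liver it read 9.47, 10.5, 10.9 and 10.8 CPM with saline and 7.78, 8.15 and 11.4 CPM with insulin. In WT 3 insulin samples were above all saline samples, and in ERRα KO 2 of 3 insulin samples were below all saline samples. Its difference was -0.52 (SE 0.21, adjusted p = 0.522), and those of Psmg4, Psmg2 and Psmd9 were -0.75, -0.65 and -0.39. Of the 46 genes tested, 0 were called higher and by either edgeR or DESeq2 0 passed at an adjusted p under 0.05, the smallest in edgeR being 0.522. Among all 14670 genes, 4.04% were called higher, 4.75% lower, and 0% had an adjusted p under 0.05.

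Outside the rule, 1 immunoproteasome subunit, Psmb10, was called lower (-0.65), and of 26 ubiquitin pathway genes tested 4 were called higher and 2 lower, among them Fbxo32 (0.75), Rbx1 (-0.60), the proteasome adaptor Ecpas (0.46) and Nfe2l2 (0.39). Single libraries decided the count of 4, which became 1 without ERRα KO liver insulin replicate 1 or 2 or without WT liver insulin replicate 2. It became 2 without ERRα KO liver saline replicate 4, and 7 without WT liver saline replicate 1. Without WT liver insulin replicate 2, the median log2 value of the chaperones stayed about as large, as given below. Psmb2 turned positive, up to 0.11, in the fits without ERRα KO liver saline replicate 4, WT liver saline replicate 2 or 4, or WT liver insulin replicate 2.

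Without WT liver insulin replicate 2, the difference was smaller for the core. The median of the 7 chaperones was -0.49, from -0.52 with all samples, and all 7 were negative in both fits. Of 46 proteasome genes tested 0 were called higher and 1 lower, Psmg1 (-0.49, SE 0.21, adjusted p = 0.565), against 3.76% and 4.59% of all 14567 genes, and 0 had an adjusted p under 0.05 in edgeR, against 0% of all genes. The core median became -0.11, with 13 of 14 negative, from Psmb3 at -0.33 to Psmb2 at 0.11, and Psmb5, Psmb6 and Psmb7 at -0.30, -0.084 and -0.088. The median of the regulatory particle became 0.023, with 10 of 17 positive, and that of all genes -0.023. The size of the core values thus depends on this library.

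**Figure D1:**
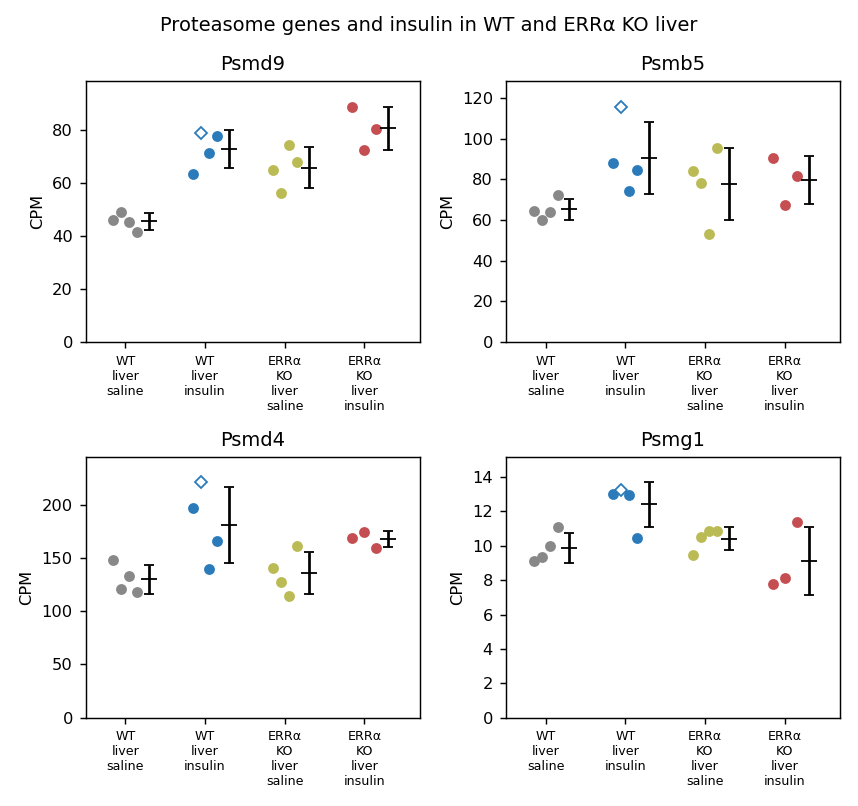
Levels of Psmd9, Psmb5, Psmd4 and Psmg1 in CPM (y axis) in the 4 liver groups of the insulin experiment (x axis); points are samples, bars are the mean and SD, and the open diamond is WT liver insulin replicate 2. For Psmd9, WT saline samples lie at 41.6 to 49.2 CPM and all other samples are above them.

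ERRα KO and WT livers were compared with saline, and apart from that with insulin, to read the effect of the knockout; the first comparison uses the same WT saline samples as the response to insulin above. With saline, Psmd9 read 65.1, 56.1, 74.3 and 68.0 CPM in ERRα KO and 46.2, 49.2, 45.2 and 41.6 CPM in WT liver. The beta subunit Psmb3 read 57.2, 52.6, 51.9 and 60.3 CPM in ERRα KO and 43.5, 40.3, 46.4 and 50.2 CPM in WT liver. For both, every ERRα KO sample was above every WT sample. Their log2 fold changes were 0.53 (SE 0.11, adjusted p = 0.131) and 0.30 (SE 0.10, adjusted p = 0.279), and the beta subunit Psmb1, whose groups overlapped, had 0.27 (SE 0.12, adjusted p = 0.393).

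These 3 of 45 were called higher, 0 lower, and 0 had an adjusted p under 0.05 in edgeR (1 in DESeq2, which called 3 higher), against 5.98% higher, 5.3% lower and 0.0816% with an adjusted p under 0.05 among all 13481 genes tested. The count is near the background. All 14 core subunits were positive with all samples, with a median of 0.19 and Psmb2 lowest at 0.018. This became 12 of 14 without WT liver saline replicate 2, and 13 without WT liver saline replicate 4, without ERRα KO liver saline replicate 4, or with library size scaling only, where Psmb2 was at -0.0077. Psmb5, Psmb6 and Psmb7 stood at 0.25, 0.16 and 0.20. The regulatory particle had 13 of 17 positive (10 without ERRα KO liver saline replicate 4) with a median of 0.062, from Psmd1 at -0.12 to Psmc2 at 0.26, and the median over all genes was 0.0037.

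Outside the rule, the lid subunit Sem1 (0.43), the core maturation factor Pomp (0.41) and Rps27a, a fusion of ubiquitin with a ribosomal protein (0.40), were called higher, and Fbxo32 (-0.68) and Ecpas (-0.30) lower. The count of 3 became 8 without ERRα KO liver saline replicate 3, 6 without WT liver saline replicate 1, and 1 without ERRα KO liver saline replicate 4 or WT liver saline replicate 2.

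With insulin, 0 of 46 proteasome genes were called higher and 2 lower in ERRα KO liver, and 0 had an adjusted p under 0.05 in edgeR (DESeq2 called 0 higher and 2 lower, and 0 by adjusted p). Among all 13665 genes tested, 4.57% were called higher, 5.42% lower and 0.0585% had an adjusted p under 0.05. The genes called lower were Psmg1 (-0.46, SE 0.19, adjusted p = 0.452), whose groups overlapped, and Psmc3ip, with 3, 4 and 3 reads in ERRα KO and 32, 21, 13 and 9 reads in WT liver (-2.42, SE 0.86, adjusted p = 0.356). The count became 0 without ERRα KO liver insulin replicate 1 or without WT liver insulin replicate 1, 2 or 3, and 1 without ERRα KO liver insulin replicate 2 or 4.

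Core subunits had a median of -0.074 and ran from Psma2 at -0.20 to Psmb7 at 0.052, with Psmb5 at -0.20 and Psmb6 at -0.036. Regulatory particle subunits had a median of 0.031 and ran from the lid subunit Psmd13 at -0.18 to Psmd11 at 0.16. The median over all genes was -0.021 and shifted to -0.11 with library size scaling only, where Psmb7 turned to -0.033 and 19.8% of the genes called were higher in place of 45.7%. Of the 14 core subunits 2 were positive with all samples, 0 with library size scaling only and 6 without ERRα KO liver insulin replicate 2. Outside the rule, 2 of 26 ubiquitin pathway genes tested were called higher, Nfe2l1 (0.40) among them, and 0 lower, while Psmb10 (-0.64) was called lower. Without WT liver insulin replicate 2, 3 of 26 were called higher, and 1 had an adjusted p under 0.05 in edgeR.

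The balance of directions in the core changed without WT liver insulin replicate 2. Then 9 of 14 core subunits were positive, with a median of 0.051, and 12 of 17 of the regulatory particle, with a median of 0.10, beside -0.012 over all genes. Psmb5, Psmb6 and Psmb7 stood at -0.051, 0.071 and 0.11, and Psma2 was still the lowest core subunit at -0.11. Of 45 proteasome genes tested 0 were called and 0 had an adjusted p under 0.05 in edgeR, against 5.99% called higher, 7.19% lower and 0.356% with an adjusted p under 0.05 among all 13486 genes. No direction of the core is therefore read from this comparison.

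In liver, ERRα3SA mice were compared with WT littermates to read what a form of ERRα without those serines does to the transcripts. Psmb5 read 80.0, 76.4, 76.8 and 75.4 CPM in WT littermates and 72.6, 71.1, 68.6 and 54.9 CPM in ERRα3SA. All 4 ERRα3SA samples were below the WT samples, and replicate 4 was lowest. The log2 fold change was -0.20 (SE 0.086, adjusted p = 0.651), below the fold required for a call. Psmb6 and Psmb7 stood at -0.16 (SE 0.075, adjusted p = 0.695) and -0.17 (SE 0.098, adjusted p = 0.741), and the groups overlapped for both.

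Of the 46 proteasome genes tested, edgeR called 0 in either direction and put 0 at an adjusted p under 0.05, and DESeq2 gave the same counts. Among all 13339 genes, 2.5% were called higher, 2.38% lower and 0% had an adjusted p under 0.05. Core subunits ran from Psmb5 to Psma5 at 0.026, with a median of -0.045, and regulatory particle subunits from Psmd3, a lid subunit, at -0.10 to the ATPase Psmc6 at 0.11, with a median of 0.012. The median over all genes was -0.00040. Psma5 turned to -0.0032 without ERRα3SA liver replicate 3.

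In muscle, ERRα3SA mice were compared with WT littermates for the same question. Psmb7 read 99.8, 97.4, 96.9 and 104 CPM in WT littermates and 174, 139.8, 142 and 124 CPM in ERRα3SA. Psma6 read 77.9, 83.4, 81.2 and 81.4 CPM in WT littermates and 108, 97.0, 96.0 and 93.3 CPM in ERRα3SA. For both genes all 4 ERRα3SA samples were above all WT samples. Psmb5 read 57.8, 60.7, 57.3 and 56.0 CPM in WT littermates and 23.1, 86.0, 85.5 and 82.1 CPM in ERRα3SA. Psmb4, a structural beta subunit, read 88.5, 91.9, 85.0 and 80.5 CPM in WT littermates and 30.8, 111, 110.3 and 103 CPM in ERRα3SA. Psmb6 read 83.8, 88.4, 80.1 and 83.4 CPM in WT littermates and 80.3, 109, 108 and 97.4 CPM in ERRα3SA. For these 3 genes replicates 2, 3 and 4 of ERRα3SA were above every WT sample, while replicate 1 was far below them for Psmb5 and Psmb4 and within their range for Psmb6.

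Replicate 1 lay below both the WT littermates and the other ERRα3SA samples for Psmb5 and Psmb4, and its label cannot be checked from gene counts. The values with all 8 samples include this library. With them, Psmb7 (0.57, SE 0.12, adjusted p = 0.477) and Psma6 (0.31, SE 0.095, adjusted p = 0.902) were called higher, Psmb5 had 0.29 (SE 0.34, adjusted p = 1.000) and Psmb6 0.26 (SE 0.12, adjusted p = 1.000). Of the 45 proteasome genes tested, these 2 were called higher, 0 lower, and 0 had an adjusted p under 0.05 in edgeR (1 in DESeq2, which called 3 higher). Among all 14081 genes, 2.78% were called higher, 1.75% lower and 0% had an adjusted p under 0.05, so the count is near the background. The medians were 0.097 for the core, 0.070 for the regulatory particle and 0.023 for all genes. Core subunits ran from Psmb2 at -0.12 to Psmb7, and regulatory particle subunits from Psmd4 at -0.14 to the lid subunit Psmd12 at 0.25, which turned to -0.12 without replicate 1. Outside the rule, Psmb8 (0.89), Sem1 (0.65) and Rps27a (0.47) were called higher.

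Without ERRα3SA muscle replicate 1, 7 proteasome genes were called higher and 1 lower, against 10.3% and 7.1% of all 14363 genes tested, and 5 had an adjusted p under 0.05, against 3.23% of all genes. All 5 were core subunits and higher in ERRα3SA. With the replicate number as a block none of them passed, since 0 proteasome genes had an adjusted p under 0.05 in edgeR. Over all genes 33 then passed, against 464 without the block. With the block, 4 core and 2 regulatory particle subunits were called, and 2454 of all genes (2506 without it). Log2 fold changes with the block were 0.58 for Psmb5 (adjusted p = 0.0543), 0.48 for Psmb7 (adjusted p = 0.0768), 0.37 for Psmb4 (adjusted p = 0.101), 0.35 for Psmb6 (adjusted p = 0.105) and 0.26 for Psma6 (adjusted p = 0.155). Without the block, Psmb5 rose by 0.58 (SE 0.058, adjusted p = 0.00337 by edgeR QL and Benjamini-Hochberg), Psmb7 by 0.48 (SE 0.061, adjusted p = 0.00719) and Psmb4 by 0.36 (SE 0.065, adjusted p = 0.0268). Psmb6 rose by 0.35 (SE 0.061, adjusted p = 0.0232) and Psma6 by 0.27 (SE 0.057, adjusted p = 0.0396). All 3 catalytic subunits of the core were thus among them, while the beta subunits Psmb1 and Psmb2 stood at -0.042 and -0.074 and Psmb3 at 0.25.

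In the regulatory particle 0 of 17 subunits were called by edgeR without this library, and 0 by DESeq2, though 3 had an adjusted p under 0.05 in DESeq2. They ran from Psmd1 at -0.25 (SE 0.077, adjusted p = 0.102) to Psmd13 at 0.24 (SE 0.064, adjusted p = 0.0750). The medians were 0.12 for the core, 0.35 for its 7 beta subunits and 0.043 for its 7 alpha subunits, 0.024 for the regulatory particle and 0.023 for all genes. Also called, and named after their values were seen, were Psme2 (0.31) and Psmg1 (0.31) higher and Psme4 (-0.39) lower. Psme4 read 345, 389, 420.2 and 403 CPM in WT littermates and 545, 312, 309 and 248 CPM in ERRα3SA, so that replicate 1 was above all WT samples and the other 3 below them.

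Outside the rule and without this library, 2 of 3 immunoproteasome subunits passed the adjusted test, Psmb8 (1.16, SE 0.24, adjusted p = 0.0395) and Psmb10 (0.56, SE 0.12, adjusted p = 0.0435), as did 2 of 4 proteasome genes outside the rule. Of these, Sem1 (0.45, SE 0.063, adjusted p = 0.0116) read 34.5, 32.2, 34.9 and 33.5 CPM in WT littermates and 73.3, 47.1, 45.0 and 42.4 CPM in ERRα3SA, and Adrm1, named after its values were seen, had 0.31 (SE 0.065, adjusted p = 0.0396). Of 27 ubiquitin pathway genes tested, 3 were called higher and 2 lower, among them Rps27a (0.45, SE 0.076, adjusted p = 0.0208) and the deubiquitinase Uchl5 (-0.39). Esrra itself stood at 0.60 (SE 0.12, adjusted p = 0.0373). What sets replicate 1 apart, its high muscle markers included, was not tested, nor was its part in the result with all samples beyond these fits.

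Markers of immune cells are given beside Psmb8 and Psmb10. In muscle of WT littermates and of ERRα3SA mice, 4 Kupffer cell markers summed to 3.69, 4.03, 7.01 and 4.63 CPM and to 4.16, 4.99, 4.66 and 17.5 CPM, with Adgre1 the most abundant and Clec4f at 0 in all 8. There 3 neutrophil markers summed to 0.141, 2.37, 0.190 and 0.115 CPM and to 0.619, 0.363, 0.291 and 9.21 CPM, with S100a9 highest in replicate 4 at 5.05 CPM, and 4 lymphocyte markers, with Cd3e highest in 7 of 8 samples, to 0.809, 1.70, 0.796 and 1.99 CPM and to 0.619, 0.661, 1.04 and 0.640 CPM. Psmb8 read 2.71, 1.78, 1.52 and 1.53 CPM in WT littermates and 1.18, 3.87, 3.69 and 4.80 CPM in ERRα3SA. What part cell types have in these values was not tested.

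The result without replicate 1 rests on 3 ERRα3SA samples and on a fit without the block. Leaving out 1 more library left 2 proteasome genes with an adjusted p under 0.05 without any 1 of the 4 WT littermate muscles or ERRα3SA muscle replicate 3. It left 1 without ERRα3SA muscle replicate 2 and 8 without ERRα3SA muscle replicate 4. The latter is the muscle library with the highest sums over the fibroblast, Kupffer cell and neutrophil marker lists. Its Kupffer cell sum was mostly Adgre1, at 16.7 CPM, while Clec4f was at 0, so the sum does not show Kupffer cells. Over all genes, 464 passed before this step, and 71 to 247 without a WT littermate muscle. The count over all genes was 116, 72 and 1505 without ERRα3SA muscle replicates 3, 2 and 4, in that order. The adjusted p of Psmb5 was 9.98e-05 to 0.0261 in these 7 fits.

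The difference of the ERRα3SA effect between tissues, muscle minus liver, was tested in a fit of the 4 groups, which are the samples of both comparisons above. Liver and muscle samples were treated as independent, though they may share mice. With all samples, Psmb7 (0.72, SE 0.16, adjusted p = 0.383), Psmb6 (0.39), Psma7 (0.36) and Psma6 (0.36) were called higher, and the inhibitor Psmf1 lower (-0.29), while Psmb5 stood at 0.47 (SE 0.38, adjusted p = 0.999). Of 46 genes tested, 4 were thus called higher, 1 lower, and 0 had an adjusted p under 0.05 in edgeR (1 in DESeq2, which called 6 higher and 1 lower). Among all 15688 genes, 3.16% were called higher, 2.41% lower and 0% had an adjusted p under 0.05. All 4 called higher were core subunits, 0 of 17 regulatory particle subunits were called by edgeR, and the medians were 0.13 for the core, 0.026 for the regulatory particle and 0.0035 for all genes. The lowest core subunit was Psmb2 at -0.16, and the regulatory particle ran from Psmc6 at -0.24 to Psmc1 at 0.27. The count of 5 fell to 3 without ERRα3SA liver replicate 2 or WT littermate muscle replicate 1. Outside the rule, Sem1 (0.85) and Rps27a (0.68) were called higher.

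Without ERRα3SA muscle replicate 1, 8 proteasome genes were called higher and 4 lower in this difference, against 8.53% and 8.73% of all 16019 genes, and 4 had an adjusted p under 0.05, against 2.3% of all genes. These 4 were the beta subunits Psmb5 (0.75, SE 0.11, adjusted p = 0.00884), Psmb7 (0.61, SE 0.13, adjusted p = 0.0316), Psmb6 (0.47, SE 0.11, adjusted p = 0.0360) and Psmb4 (0.42, SE 0.095, adjusted p = 0.0366), again with all 3 catalytic subunits. A count of 1, Psmb5, was left in 8 of 15 fits without 1 more library, namely WT littermate liver replicate 1, 2 or 4, ERRα3SA liver replicate 3, WT littermate muscle replicate 3 or 4, or ERRα3SA muscle replicate 2 or 3, and 7 passed without WT littermate muscle replicate 1. Over all genes, 68 to 156 passed in these 8 fits and 427 without WT littermate muscle replicate 1, against 369 before this step. With replicates as a block the 4 beta subunits still passed (416 over all genes), and without the filter on low counts Psmb5 and Psmb7 did (197 over all genes). Psma8, with at most 5 reads in a muscle sample, is among the genes called higher. In the regulatory particle, Psmd1 (-0.39, SE 0.11, adjusted p = 0.0714) and Psmc6 (-0.39, SE 0.10, adjusted p = 0.0538) were called lower, and Psmc1 was highest at 0.24. The medians were 0.14 for the core, 0.42 for its beta subunits, 0.0045 for the regulatory particle and -0.0014 for all genes.

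**Figure D2:**
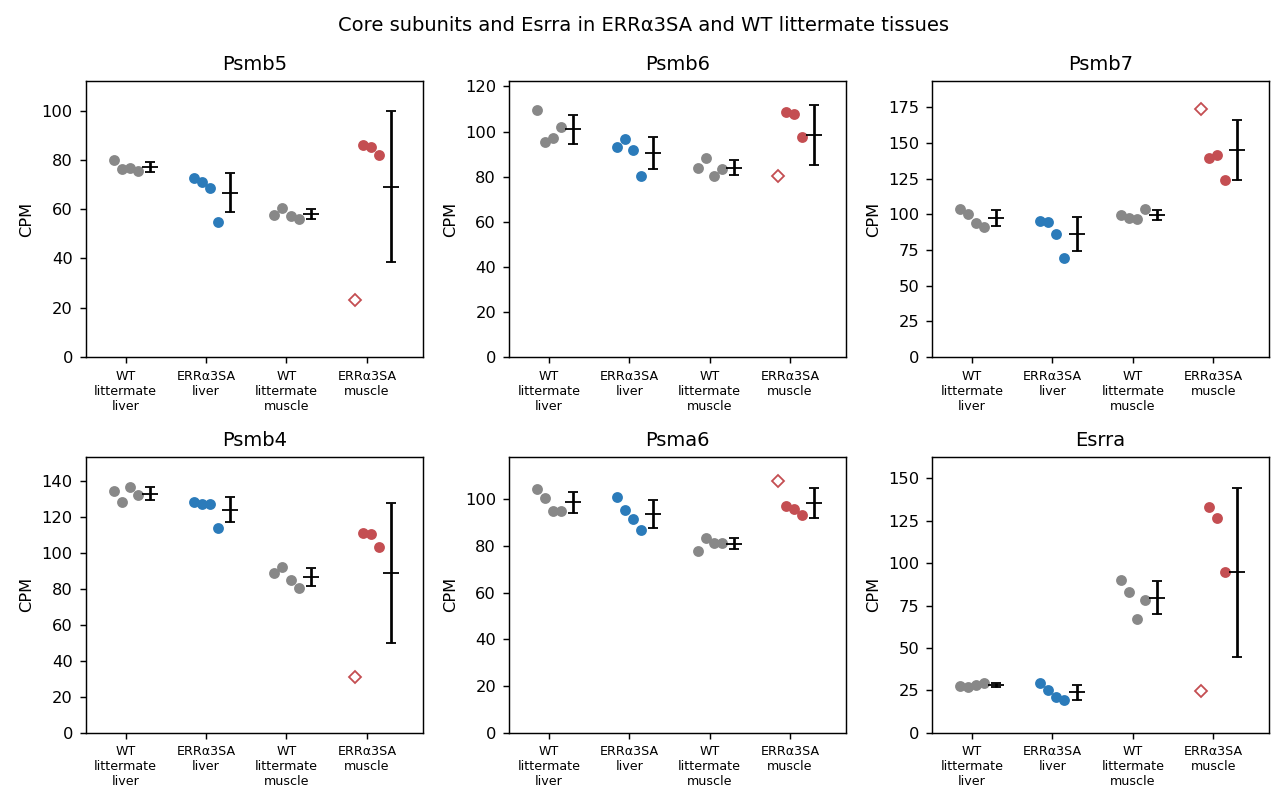
Levels of Psmb5, Psmb6, Psmb7, Psmb4, Psma6 and Esrra in CPM (y axis) in liver and muscle of WT littermates and ERRα3SA mice (x axis); points are samples, bars are the mean and SD, and the open diamond is ERRα3SA muscle replicate 1. In muscle, the other 3 ERRα3SA samples of Psmb5 lie between 82.1 and 86.0 CPM, above the WT samples at 56.0 to 60.7 CPM.

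The median log2 fold changes of core and regulatory particle subunits are set side by side here, in that order, with no test of their difference. For insulin in WT liver they were 0.25 and 0.19 with all samples and 0.15 and 0.11 without WT liver insulin replicate 2, and for insulin in ERRα KO liver 0.026 and 0.15. The difference of these responses had -0.26 and -0.064, and -0.11 and 0.023 without that library. For ERRα KO they were 0.19 and 0.062 with saline, and with insulin -0.074 and 0.031, or 0.051 and 0.10 without that library. The sign of the core median for ERRα KO with insulin thus depends on 1 library. For ERRα3SA they were -0.045 and 0.012 in liver and 0.097 and 0.070 in muscle, or 0.12 and 0.024 without replicate 1 of the latter. The difference between tissues had 0.13 and 0.026, or 0.14 and 0.0045 without it, and muscle against liver of WT littermates -0.37 and 0.35. Several of these comparisons share control samples, so no comparison is made among them.

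**Figure D3:**
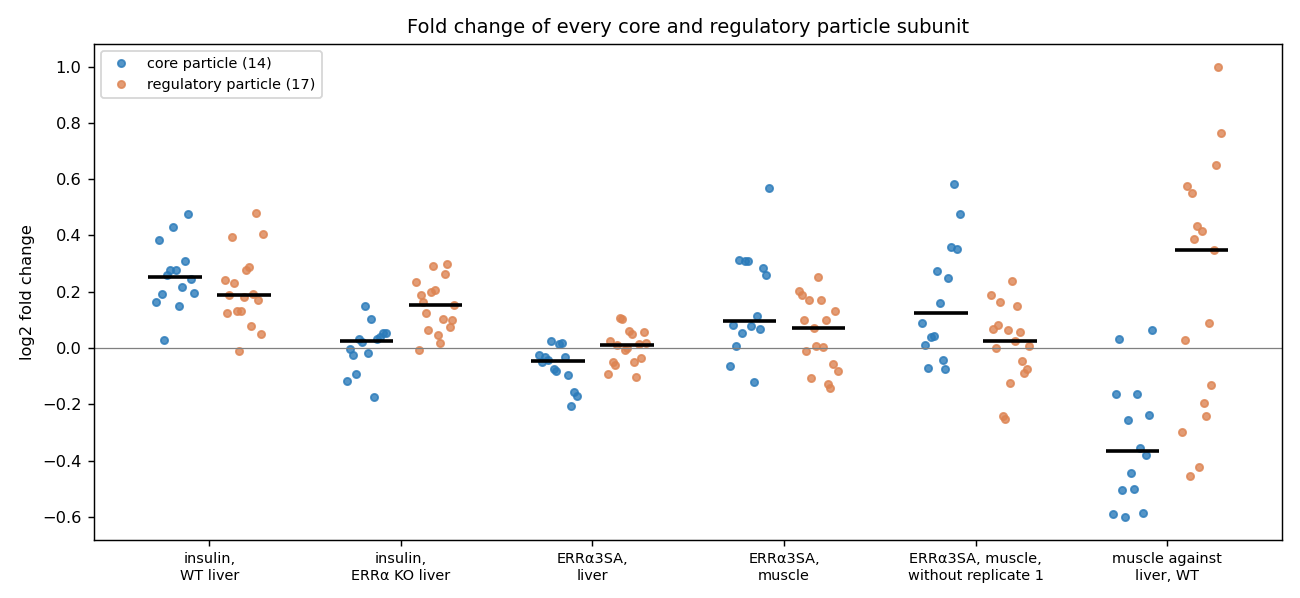
Log2 fold change (y axis) of each of the 14 core and 17 regulatory particle subunits in 6 comparisons (x axis); points are genes and black lines are medians. Muscle against liver splits the particles, with medians of -0.37 for the core and 0.35 for the regulatory particle.

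The balance of both particles was also read in each sample, as the mean log2 CPM of the 14 core subunits minus that of the 17 regulatory particle subunits. This is a difference of levels within a sample, described without a test. It was -0.036, -0.075, -0.085 and -0.092 in liver and -0.56, -0.58, -0.64 and -0.66 in muscle of WT littermates. Every muscle sample was far below every liver sample. In ERRα3SA mice it was -0.082, -0.13, -0.15 and -0.20 in liver and -0.73, -0.43, -0.42 and -0.49 in muscle. ERRα3SA muscle replicates 2, 3 and 4 were above all WT muscles and replicate 1 was below them, and in liver the groups overlapped.

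In the insulin experiment the balance was -0.57, -0.70, -0.59 and -0.49 in WT liver with saline and -0.64, -0.46, -0.52 and -0.54 with insulin. It was -0.52, -0.49, -0.50 and -0.39 in ERRα KO liver with saline and -0.62, -0.72 and -0.52 with insulin. All 4 groups overlapped, with means of -0.59, -0.54, -0.48 and -0.62. The mean log2 CPM of the core alone was 6.13, 5.82, 6.08 and 6.03 in WT liver with saline and 6.16, 6.56, 6.12 and 6.21 with insulin, so that 1 insulin sample lay below the highest saline sample and replicate 2 was highest. WT littermate livers had a higher balance than all livers of the insulin experiment, but no test was made between experiments, and fasting, injection and experiment cannot be told apart here.

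**Figure D4:**
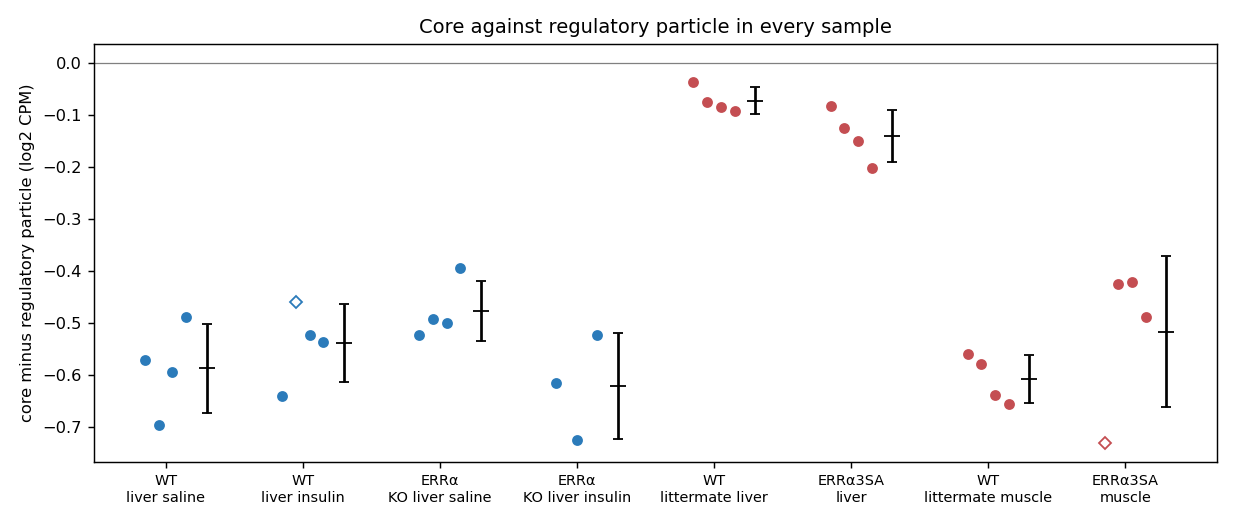
Mean log2 CPM of core minus regulatory particle subunits (y axis) in every sample of the 8 groups (x axis), with blue for the insulin and red for the ERRα3SA experiment; bars are the mean and SD, and open diamonds are WT liver insulin replicate 2 and ERRα3SA muscle replicate 1. WT littermate liver lies at -0.092 to -0.036 and WT littermate muscle at -0.66 to -0.56. Gene length is not taken out, so only shifts between samples are read.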

How the data were processed

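The deposited tables hold raw counts for each gene, from STAR on mm10, of paired-end libraries that the authors made with NEBNext Ultra; release and strand setting of their annotation are not given in the sources used here. From them, log2 fold changes, SEs and p-values were computed over all genes with edgeR 4.0.16 in R 4.3.3 (quasi-likelihood test, TMM, filterByExpr, Benjamini-Hochberg), with only the compared groups in a fit. CPM used TMM library sizes of the whole experiment, log2 CPM a pseudocount of 0.5, and FPKM merged exons of GENCODE vM21. Fits were tested on simulated data, where they missed part of the changed genes in every comparison simulated and, for ERRα3SA muscle, made a larger share of false calls than the threshold allows. DESeq2 1.42.0, scaling, filter, mitochondrial genes, fit groups, block and each library left out were alternatives. Named in each comparison are at most 6 proteasome genes with an adjusted p under 0.05, or else at most 6 called, the 3 catalytic subunits, the extremes of both particles, Esrra, and at most 6 called genes of the other lists; further genes are marked, and some genes of those lists are not used here. The members and lists were chosen with earlier results of these data known.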

Additional observations from a re-analysis of the deposited data

Results flagged for a closer look

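For 15 measures in 7 groups of 4 samples, 105 sets of 4 values, the gap of the highest or lowest value to the nearest other one, over the range of the set, was read against Dixon's critical value. Beyond it were 14 values, from 7 libraries; chance gives about 1 in 20 sets, and sets from the same samples are not independent. ERRα3SA muscle replicate 1 was far below its group for Psmb4 (30.8 CPM) and Psmb5 (23.1 CPM), and far above it for Psmd7 (240.2 CPM) and for the share of mitochondrial counts (19.3%). WT liver insulin replicate 2 was far above its group for Psmb4 (129.6 CPM) and Esrra (96.5 CPM), and far below it for mitochondrial counts (1.88%). ERRα3SA liver replicate 4 was far below its group for Psmb4 (114 CPM) and for the mean log2 CPM of the core (6.41), and WT littermate muscle replicate 2 was far above for that mean (6.28). ERRα KO liver saline replicate 3 was far from the others for Psmd7 (66.6 CPM) and for mitochondrial counts (3.91%), WT liver saline replicate 3 for Psme4 (267 CPM), and WT liver insulin replicate 4 for Psmg1 (10.5 CPM). Causes were not tested.

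With all samples, 0 proteasome genes had an adjusted p under 0.05 in edgeR for the difference of the ERRα3SA effect between muscle and liver (smallest 0.383; Psmb5 at 0.47, adjusted p = 0.999). Leaving out ERRα3SA muscle replicate 1 was a choice made after the data were seen, and this library is the low one above for Psmb4 and Psmb5. Without it, the test of the difference passed with a log2 value of 0.42 for Psmb4, 0.75 for Psmb5, 0.47 for Psmb6 and 0.61 for Psmb7. In 8 of 15 fits without 1 more library, only Psmb5 still passed among proteasome genes. Over all genes, 68 to 156 passed in these 8 fits, against 369 before this step.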

How the results depend on the processing

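Of the values that answer a comparison, 371 kept within the limit set for them over the alternatives and 77 moved, and of the others 1792 kept their direction and side of the threshold or their level, 49 moved, 31 came to pass the threshold, 81 no longer passed it and 35 changed sign. Except where a cause is given, the cause was not tested.

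With DESeq2, proteasome genes with an adjusted p under 0.05 numbered 3 for insulin in WT liver (1 with edgeR), 1 each for insulin in ERRα KO liver, ERRα KO with saline, ERRα3SA muscle and the difference between tissues (0 with edgeR), 11 for ERRα3SA muscle without replicate 1 (5 with edgeR), and 8 for the difference between tissues without it (4 with edgeR, 2 without the filter). Over all genes, DESeq2 put 936, 988, 248, 56 and 27 at an adjusted p under 0.05 in the comparisons with all samples, in that order. The counts with edgeR were 425, 398, 11, 0 and 0. Without ERRα3SA muscle replicate 1, DESeq2 gave 1252 for muscle and 1116 for the difference between tissues, against 464 and 369 with edgeR (197 for the latter without the filter). With all groups in one fit, 2 proteasome genes had an adjusted p under 0.05 and 13 were called for insulin in WT liver. With library size scaling only, all 3 calls for insulin in ERRα KO liver were lost and 1 was called lower, 1 for ERRα KO with saline (from 3) and 1 for ERRα3SA muscle (from 2), and called genes higher were 32.0, 25.8, 33.5 and 42.7% of all called for insulin in ERRα KO liver, its difference to WT, ERRα3SA muscle and its difference to liver, from 46.8, 45.9, 61.4 and 56.8%. It moved the median of all genes to -0.11 for ERRα KO with insulin and to 0.14 for muscle against liver (0.15 without the filter). It put Psmb5, Psmb6 and Psmb7 at -0.038, -0.021 and -0.020 for insulin in ERRα KO liver, Psmb2 at -0.0077 for ERRα KO with saline, and Psmb7 at -0.033 for ERRα KO with insulin. Psmc2 was at 0.0005 for insulin in ERRα KO liver with DESeq2 and with RLE factors.

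With the replicate number as a block, 5 were called for ERRα KO with saline and 0 for ERRα KO with insulin, and Psmb5, Psmb6 and Psmb7 were at -0.11, -0.023 and -0.048 for insulin in ERRα KO liver. For ERRα3SA muscle without replicate 1, 0 proteasome genes had an adjusted p under 0.05 in edgeR with the block, and 33 of all genes, from 464. Psmb5 was at 0.58 there (adjusted p 0.0543), and 4 core and 2 regulatory particle subunits were called. In no comparison did all same-numbered samples correlate above 0.1 in their deviations, and the main fits do not use the numbers. Same-numbered samples were still each other's closest match for some numbers. These were 3 and 4 for insulin in WT liver, 1, 3 and 4 for ERRα KO with saline, and 2 and 4 for ERRα KO with insulin. They were also 4 for ERRα3SA liver and 2 and 3 for muscle against liver. No number did so for insulin in ERRα KO liver or for ERRα3SA muscle. Whether the numbers mark a shared batch was not tested. Some single numbers did correlate above 0.1. They were replicates 3 and 4 for insulin in WT liver (0.290 and 0.220) and for ERRα KO with saline (0.165 and 0.119), and replicate 4 for ERRα3SA liver (0.333). What these share was not tested.

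With the longest transcript, median FPKM of the 31 subunits was 55.9, 60.8, 53.0 and 60.6 in ERRα KO saline, ERRα KO insulin, WT saline and WT insulin livers, 59.7 and 58.2 in WT littermate and ERRα3SA liver, and 61.3 and 62.8 in their muscles, since this transcript is shorter than the merged exons. With medians, core minus regulatory particle was -0.22, -0.35, -0.32, -0.30 and 0.046 in the first 5 of these groups. With chaperones and activators left in, it was 0.11, 0.024, 0.017, 0.094, 0.41, 0.33, 0.18 and 0.26 in the 8 groups.

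Each library left out in turn, a choice made after the data were seen for levels and for fits without ERRα3SA muscle replicate 1, gave these ranges of genes called: 5 to 13 for insulin in WT liver (0 to 1 by adjusted p), 1 to 5 for insulin in ERRα KO liver, 1 to 8 for ERRα KO with saline, 0 to 2 for ERRα KO with insulin, 1 to 7 for the difference of insulin effects, 2 to 8 for ERRα3SA muscle (0 to 5 by adjusted p, and 1 to 8 without replicate 1), and 3 to 12 for the difference between tissues (0 to 4, and 1 to 7 without replicate 1). Log2 fold changes that changed sign ran, for insulin in WT liver, from -0.036 to 0.097 for Psma4 and -0.061 to 0.011 for Psmd1. For insulin in ERRα KO liver they ran from -0.11 to 0.15 for Psmb5, -0.029 to 0.15 for Psmb6, -0.042 to 0.15 for Psmb7 and -0.041 to 0.047 for Psmc2. They ran from -0.064 to 0.16 for Psmb2 for ERRα KO with saline, -0.12 to 0.071 for Psmb6 for ERRα KO with insulin, -0.19 to 0.11 for Psmb2 for the difference of insulin effects, -0.0032 to 0.058 for Psma5 in ERRα3SA liver and -0.12 to 0.38 for Psmd12 in ERRα3SA muscle.

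Depth limits Psma8, Psmc3ip and Psmb11, which have few or no reads. Replicates differed by more than counting noise, at least by 6.75 in chi-square over degrees of freedom.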
